A study of Mus musculus with 2 samples.

Results

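The 6 actin genes of the mouse, Actc1, Actb, Acta2, Actg1, Acta1 and Actg2, were selected by gene symbol. They are 6 of 55536 annotated genes and carry 30 annotated transcripts. They were measured by RNA sequencing of total RNA in 2 libraries of heart tissue from female B6CASTF1/J mice, a strain the labels also write as B6Cast F1, at 4 days of age. No treatment or engineered allele is named, each library began with 300 ng of RNA, and ERCC spike-in standards of a profile for stranded, ribosome-reduced libraries were added. The labels number the libraries as separate biological replicates but name 1 donor for both, so whether they are separate animals is uncertain and the spread between them may be technical. Both libraries form a single group, so no contrast of conditions was possible and no p-value was computed.

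Actin is the ATP-binding protein that polymerises into the thin filaments of the sarcomere and into the filaments of the cell cortex and stress fibres. Mammals encode it in a small family that is usually sorted by the tissue in which each member was found: Actc1 in cardiac muscle, Acta1 in skeletal muscle, Acta2 in vascular smooth muscle, Actg2 in enteric smooth muscle, and Actb and Actg1 in the cytoplasm of nearly every cell. The classes are not exclusive, since the rodent heart is known to express skeletal actin around birth and smooth muscle actin during its early development.

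The expected counts of the libraries summed to 36175363 and 32509660, and a count of 0 allows up to 0.0829 and 0.0923 CPM (counts scaled to the library total). This limit and all intervals below cover no more than counting error, since the reads carry no molecular identifiers. Each library has 2 quantifications: the first, in tables with RSEM's columns, is the source of all values except where the second, in a transcript table with kallisto's columns, is named. The tissue label was checked against 8 cardiomyocyte markers, all of which reached 1 TPM (a level corrected for transcript length and scaled to the same total in each library) in both libraries, with sums of 26688 and 27666 TPM. Between the libraries a gene was called when its scaled counts differed by at least 2-fold, its mean TPM was at least 1, its counts summed to at least 20 and its exact 95% counting interval excluded equality. Of 13598 genes tested, 73 were called higher in replicate 1, which is 0.537%, and 44 higher in replicate 2, which is 0.324%. With scaling by the spike-ins these counts were 60 and 68, so which library had more calls depended on the scaling. The libraries stood apart in markers of other cells: all 5 erythroid markers were called higher in replicate 1, and the 13 skeletal muscle markers on the list had more counts there.

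The actin proteins are nearly the same, while their coding sequences are not. Identity among the 15 pairs of translated proteins ran between 93.6% and 99.5%. Acta2 and Actg2 were the closest pair of proteins, with 2 positions different and 1 gap. Acta1 and Actc1 differed at 4 positions, and so did Actb and Actg1. Actc1 and Actg2, sorted to different tissues, also differed at 4 positions, with 1 gap. Identity of the coding sequences ran only between 82.0% and 88.6%. The first 60 coding bases of each member, read from GENCODE M21 transcripts, show how these differences are spread, with capitals marking the bases that differ from Actc1 in the pairwise alignment.

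Actc1: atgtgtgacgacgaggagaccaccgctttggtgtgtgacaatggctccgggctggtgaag
Acta1: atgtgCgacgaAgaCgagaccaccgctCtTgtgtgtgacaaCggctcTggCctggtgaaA
Acta2: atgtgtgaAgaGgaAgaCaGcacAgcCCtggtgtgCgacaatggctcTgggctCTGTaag
Actg2: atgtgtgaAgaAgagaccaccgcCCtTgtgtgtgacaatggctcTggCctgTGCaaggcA
Actb: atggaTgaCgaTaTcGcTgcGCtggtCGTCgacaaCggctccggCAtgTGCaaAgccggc
Actg1: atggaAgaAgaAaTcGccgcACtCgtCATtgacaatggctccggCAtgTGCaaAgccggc

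In these 60 bases the skeletal member Acta1 differed from Actc1 at 9 bases, Actg2 at 11, Acta2 at 14, Actg1 at 17 and Actb at 19. Actb and Actg1 also lack codons near the start, so their alignment to Actc1 holds a gap of 6 bases. The alignment of Actg2 to Actc1 holds a gap of 3 bases. No stretch of 100 nt of any leading transcript was found in another actin gene. The plot of likeness sets the identity of the proteins against that of the coding sequences.

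**Figure D1:**
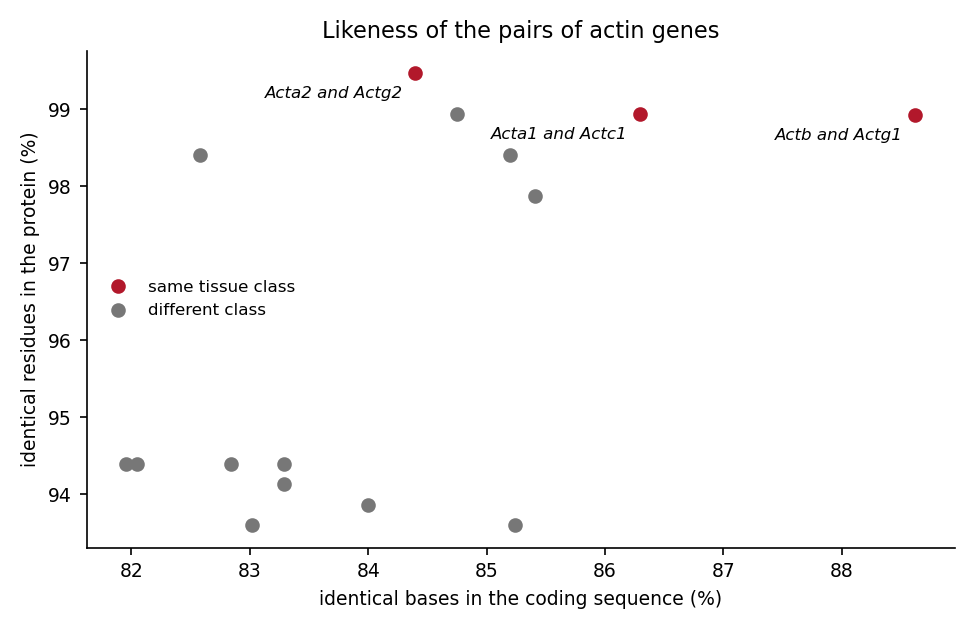
Each point is 1 of the 15 pairs of actin genes, with the percent of identical bases in the coding sequence on the horizontal axis and the percent of identical residues in the protein on the vertical axis; red points are the 3 pairs within a tissue class. The pairs of the striated, smooth muscle and cytoplasmic class lie at 98.9% or above in protein, at coding identities of 86.3%, 84.4% and 88.6%. A pair across classes, Actc1 and Actg2, also lies at 98.9% in protein.

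Together the 6 actins summed to 10145 TPM in replicate 1 and 9489 TPM in replicate 2, a mean of 9817 ± 464 (SD, n = 2). That was 0.982% ± 0.0464 of all TPM and 2.15% ± 0.103 of the TPM of nuclear protein-coding genes. The striated class, Actc1 and Acta1, held 79.2% of the actin TPM in replicate 1 and 77.8% in replicate 2. The cytoplasmic class, Actb and Actg1, held 15.3% and 17.3%, and the smooth muscle class, Acta2 and Actg2, held 5.48% and 4.96%. The classes stood in the same order in both libraries and their ranges did not overlap. In bulk tissue, fewer cells of a type and less RNA per cell cannot be told apart.

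**Figure D2:**
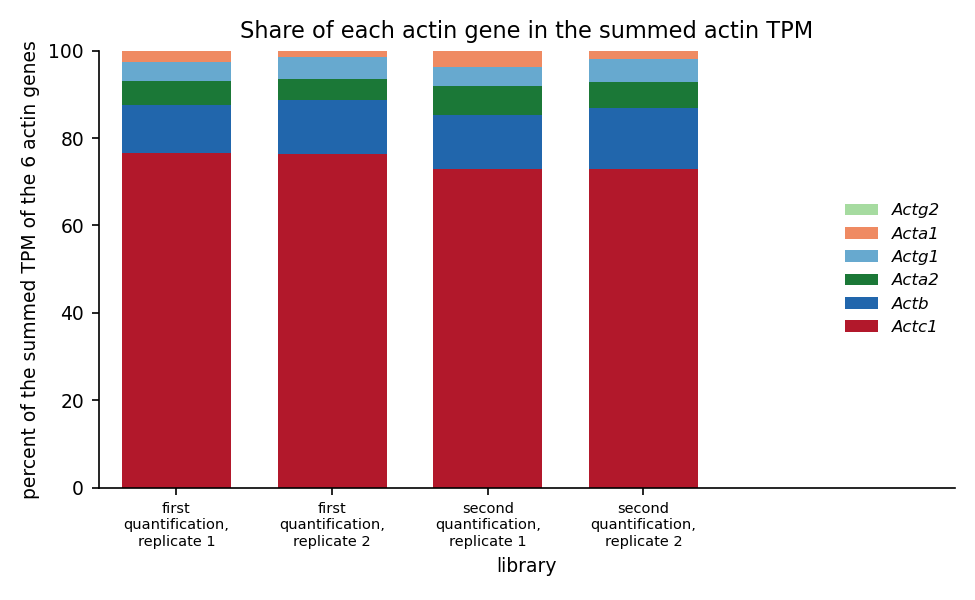
Stacked bars give each actin gene's percent of the summed TPM of the 6 actins, for each library in the first quantification and then in the second. Actc1 filled 76.6% and 76.5% of the bar in the first quantification and 72.9% and 73.0% in the second, and Actg2 is too small to see.

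Actc1, the thin-filament actin of cardiac muscle (ENSMUSG00000068614.7; mm10 chromosome 2, 114047282 to 114053548, minus strand), was the highest actin, at 7776 TPM in replicate 1 and 7257 TPM in replicate 2. It ranked 2 in each library among 21879 nuclear protein-coding genes with an effective length of at least 200 nt. These levels rested on 299924 and 244748 counts, and the authors' posterior SD of the count was 0 in both libraries. Actc1 exceeded Actb by 2.81 and 2.65 on the log2 scale, a mean of 6.63-fold, and their ranges lay far apart. The protein-coding gene nearest to it in level, measured as distance in log2(TPM + 1) over the 2 libraries, was Myh6, the alpha myosin heavy chain, with 7039 and 6860 TPM. A noncoding gene on the opposite strand, A530058N18Rik, spans Actc1 and had 86.3 and 65.7 counts. Whether the authors' counting used strand is not stated in the labels.

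**Figure D3:**
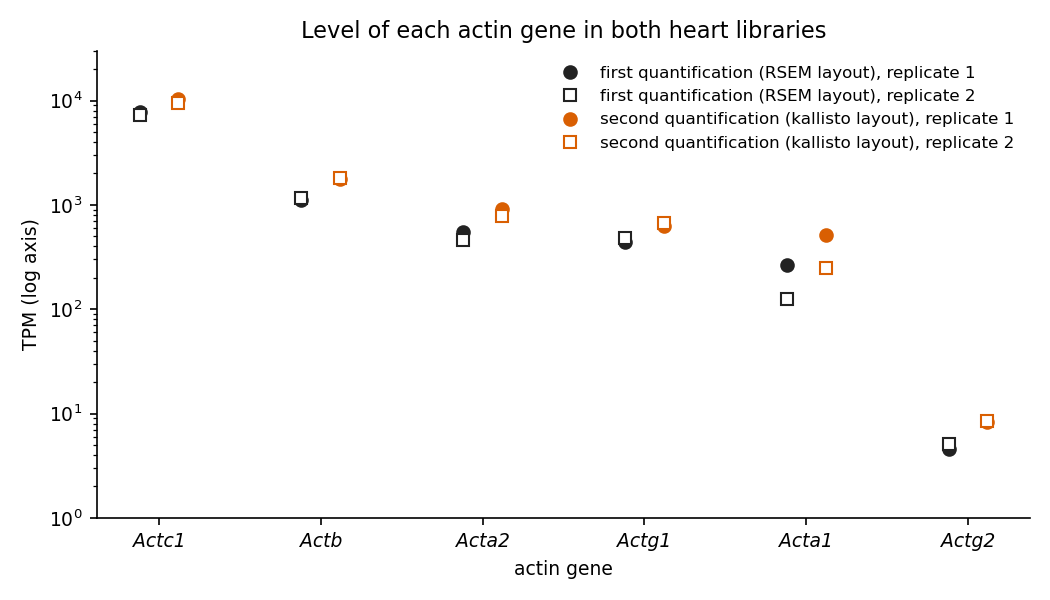
The TPM of each actin gene is drawn on a log axis, with filled circles for replicate 1, open squares for replicate 2, black for the first quantification and orange for the second. The order Actc1, Actb, Acta2, Actg1, Acta1, Actg2 holds by mean in both quantifications, and Acta1 shows the widest gap between the replicates, at 263 and 125 TPM in the first.

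Actb, the beta-cytoplasmic actin of nonmuscle filaments (ENSMUSG00000029580.14; mm10 chromosome 5, 142903115 to 142906754, minus strand), came next at 1106 and 1159 TPM, with 49600 and 45563 counts. Its partner Actg1, the gamma-cytoplasmic actin (ENSMUSG00000062825.15; mm10 chromosome 11, 120345690 to 120348542, minus strand), stood at 444 and 478 TPM, with 21119 and 19596 counts. Actb exceeded Actg1 by 1.32 in replicate 1 and 1.28 in replicate 2 on the log2 scale, so Actb made up 71.4% and 70.8% of the cytoplasmic actin TPM. Of the 15 pairwise log2 ratios this had the smallest SD between the libraries, 0.0264, next to 0.0269 for Actg1 over Actg2. Nearest in level were Rpl41, a ribosomal protein gene, for Actb (1068 and 1076 TPM) and Nme2, a nucleoside diphosphate kinase gene, for Actg1 (439 and 480 TPM).

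Each close copy found elsewhere in the annotation was closest to a cytoplasmic actin. Matches of these copies to other members were not counted. Outside the family, 18 features matched any annotated actin transcript at 90% identity or more over at least 300 nt. By longest match, 6 of them were closest to Actb and 12 to Actg1. Of these, 16 were annotated as pseudogenes and 6 had 0 counts in both libraries. Together the 18 held 11140 and 10722 counts, equal to 2.75% and 3.23% of the counts of the 6 actins. Most of the 18 features' counts fell on Lrrc58, a protein-coding gene with a match of 1347 nt to Actb at 90.6% identity, with 9540 and 9155 counts over all its transcripts. Its span holds the Actb-like pseudogene Gm15725, at 225 and 277 counts with posterior SDs of 16.3% and 13.2% of those counts.

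For Actg1 the leading copy was Gm8399, a processed pseudogene at 98.6% identity over 1125 nt, with 1188 and 1090 counts in the first quantification and 606 and 502 in the second. Of the 100-nt stretches of the leading Actg1 transcript, 48.9% occurred in no other gene, against 98.9% for Actb and 100% for Acta1, Acta2, Actc1 and Actg2. The posterior SD of the Actg1 count was 26.4 and 25.9 counts, and that of Actb 4.43 and 4.38. The other 4 members had a posterior SD of 0. How far the level of Actg1 depends on reads divided among copies was not tested.

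Acta2, the actin of vascular smooth muscle (ENSMUSG00000035783.9; mm10 chromosome 19, 34241090 to 34255590, minus strand), was at 551 TPM in replicate 1 and 465 TPM in replicate 2, from 24034 and 17604 counts. Acta2 and Actg1 were the only neighbours in the order whose ranges overlapped, with Acta2 higher by 0.31 on the log2 scale in replicate 1 and at -0.04 in replicate 2. Actb lay above Acta2 by 1.00 and 1.32. Of the 8 smooth muscle markers, 7 reached 1 TPM in both libraries and the 8 summed to 239.6 and 260 TPM, less than Acta2 alone. Within that list Smtn, a cytoskeletal protein of smooth muscle, had 84.3 and 95.6 TPM, and Myh11, the smooth muscle myosin heavy chain, had 6.20 and 9.35 TPM. The gene nearest to Acta2 in level was Myl9, a regulatory light chain of smooth and nonmuscle myosin, with 522 and 435 TPM.

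Actg2, the enteric smooth muscle actin (ENSMUSG00000059430.14; mm10 chromosome 6, 83512905 to 83536265, minus strand), was the lowest member, at 4.59 and 5.07 TPM from 159 and 146 counts. Acta2 exceeded it by 6.91 and 6.52 on the log2 scale, and the proteins of these members are the most alike of all pairs. Its count was the smallest of the family and its counting error accordingly the largest, about 7.93% and 8.28% of its value. Pnck, a calcium/calmodulin-dependent kinase gene, was nearest in level with 4.63 and 5.07 TPM.

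Acta1, the actin of skeletal muscle thin filaments (ENSMUSG00000031972.5; mm10 chromosome 8, 123891769 to 123894751, minus strand), was at 263 TPM in replicate 1 and 125 TPM in replicate 2, from 9881 and 4124 counts. The mean was 194 ± 97.5 (SD, n = 2), the widest relative spread of the 6 actins. Acta1 lay between Actg1, which exceeded it by 0.76 and 1.93 on the log2 scale, and Actg2, which it exceeded by 5.84 and 4.63. It made up 3.27% and 1.70% of the striated actin TPM. By level Acta1 ranked 266 in replicate 1 and 570 in replicate 2 among the nuclear protein-coding genes, while Actb ranked 26 and 23, Acta2 75 and 111, Actg1 119 and 105, and Actg2 9322 and 9222. The gene Gm20388, whose annotated span on the opposite strand covers Acta1, had 0.36 and 12.8 counts. The nearest gene in level, Atp1b1, a subunit of the sodium pump, was at 188 and 164 TPM and lay farther from Acta1 than the nearest gene of any other member did from it.

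Between the libraries 1 of the 6 actins was called, and that was Acta1, against 0.537% of the genes tested for calls higher in replicate 1. None was called higher in replicate 2, against 0.324% of the genes tested. The scaled counts of Acta1 were 2.22-fold higher in replicate 1, a log2 ratio of 1.15 with a counting interval of 1.10 to 1.20. Only 0.713% of the genes tested had a ratio at least that far from 0 in either direction. At a threshold of 3-fold the call was lost.

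The other actins differed less between the libraries. The log2 ratio of Acta2, replicate 1 over replicate 2, was 0.34 (0.31 to 0.37), and 8.50% of the genes tested lay at least as far from 0. Actc1 had a ratio of 0.18 (0.18 to 0.19). The intervals of Actb, Actg1 and Actg2 included 0, at ratios of 0.01, -0.0011 and 0.01. With scaling by spike-ins the median gene moved to -0.13, from 0.0031 in the main scaling, and on that scale Acta1 stood at 1.02, Acta2 at 0.21, Actc1 at 0.05, Actb at -0.12, Actg1 at -0.13 and Actg2 at -0.12. This scaling shifts the ratio of every gene by the same amount.

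**Figure D4:**
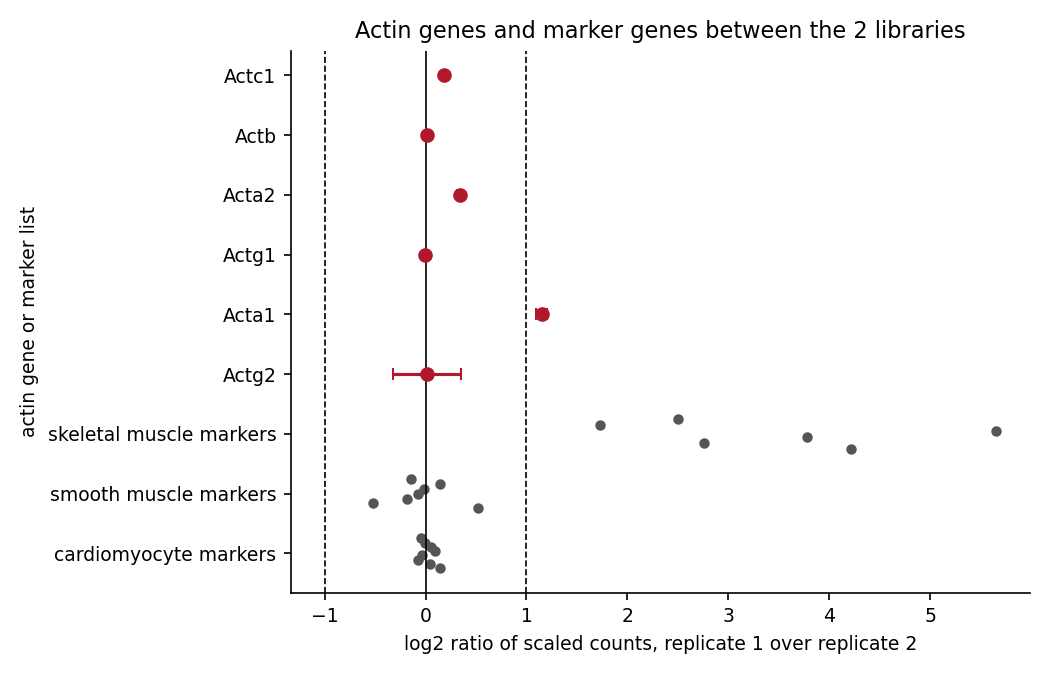
Each red point is the log2 ratio of scaled counts, replicate 1 over replicate 2, of an actin gene, with its exact 95% counting interval where it is wider than the point; grey points are the tested genes of 3 marker lists, dashed lines mark 2-fold. Acta1 at 1.15 lies past the 2-fold line and below the 6 skeletal muscle markers drawn, which run between 1.73 and 5.65 and of which 2 passed the filter only through replicate 1, while smooth muscle and cardiomyocyte markers lie within 2-fold.

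Markers of skeletal muscle moved with Acta1. The 13 markers on the list summed to 46.3 TPM in replicate 1 and 7.21 TPM in replicate 2. Of the 13, 4 reached 1 TPM in both libraries, and these, Myh8, Mylpf, Tnni2 and Tnnt3, were called higher in replicate 1. Tnnc2 and Atp2a1 were called too, but they passed the minimum of mean TPM only through replicate 1, so their calls followed in part from the filter. Myh8, the perinatal myosin heavy chain, had 1301 and 178 counts, and Mylpf, a fast-muscle myosin light chain, had 185 and 12. The fast troponin genes Tnni2, Tnnt3 and Tnnc2 had 130 and 36, 119 and 19, and 81 and 1 counts, and the fast calcium pump gene Atp2a1 had 330 and 16. Acta1 itself differed by 138 TPM between the libraries, and the 13 markers together by 39.1 TPM. The muscle regulators Myod1 and Myog were near or at the floor, with 1 and 0 counts and with 9 and 6 counts. No marker of the 13 was at 0 in replicate 1, while 2 of them, Myh4 and Myod1, were at 0 in replicate 2. The part of these markers' cells in the result for Acta1 was not tested.

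Erythroid transcripts differed far more, with the 5 markers at a summed 17268 TPM in replicate 1 and 220 TPM in replicate 2, and their part in the actin values was not tested. Hba-a1, Hba-a2, Hbb-bs and Hbb-bt, the globin genes, and Alas2, the erythroid heme synthesis enzyme, had log2 ratios of 6.39, 6.29, 6.46, 6.27 and 6.34. The cardiomyocyte markers split evenly, 4 higher in replicate 1 and 4 in replicate 2, with a median log2 ratio of 0.02, and their highest genes were the myosin genes Myl2 (8198 and 8449 TPM), Myh6 and Myl3 (3692 and 4120 TPM). Of the 7 smooth muscle markers tested, 2 were higher in replicate 1 and 5 in replicate 2, at a median of -0.07, while Acta2 was higher in replicate 1. The widest ratios on this list pointed in opposite directions, at -0.52 for Myh11 and 0.52 for Cnn1, smooth muscle calponin. Tagln, a smooth muscle actin-binding protein, had a ratio of -0.14, and Myocd, a coactivator of SRF, had a ratio of -0.07. None of these was called. The pericyte, fibroblast, endothelial and macrophage lists had no called member either, at medians of -0.11, -0.16, 0.06 and -0.25. Over all genes tested, 0.537% and 0.324% were called higher in replicates 1 and 2. The highest genes of the pericyte list, Rgs5, Cspg4 and Abcc9, had ratios of -0.13, -0.02 and 0.04. Of the 7 genes on that list, 1 was higher in replicate 1 and 6 in replicate 2. The fibroblast genes Col1a1, Col3a1 and Postn had ratios of -0.18, -0.18 and -0.14. The endothelial genes Pecam1, Cdh5 and Kdr had ratios of -0.01, 0.05 and 0.06, and the macrophage genes Csf1r, C1qa and Mrc1 had ratios of -0.42, -0.18 and -0.25.

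The annotated transcripts of each actin were shared out differently by the 2 quantifications deposited for each library. Actc1 was the exception: Actc1-201 held 99.99% of its TPM in replicate 1 and 99.98% in replicate 2 in the first quantification, and 99.9% in both in the second. For Acta1, the full-length Acta1-201 (1446 nt, 7 exons) held 56.8% and 54.4% in the second quantification, against 98.9% and 99.4% in the first. The remainder went to Acta1-202, a model of 616 nt that shares 526 nt with Acta1-201. Acta2-201 (2035 nt) held 51.5% and 49.8% in the second quantification, against 68.3% and 67.3% in the first, with Acta2-202 (826 nt) taking the rest, so that Acta2-202 led in replicate 2 of the second.

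The cytoplasmic actins, each with 9 annotated transcripts, followed the same course. Actb-201 (1920 nt) held 53.2% and 54.4% in the second quantification, against 78.4% and 78.7% in the first. The next transcript was Actb-208 (930 nt) in the second quantification, with 28.3% and 30.1%, but the noncoding Actb-206 (894 nt) in the first, with 15.0% and 14.6%. Actb-202 and Actb-207 reached 6.68% and 6.64% in replicate 1 of the second quantification, against 0.580% and 0.122% in the first. Actg1-202 (1952 nt) held 55.5% and 56.8% in the second quantification, against 85.5% and 83.8% in the first. Actg1-205 and Actg1-204 took 20.6% and 13.0% in replicate 1 of the second quantification, against 1.11% and 0% in the first. Actg1-207, a transcript that retains an intron, held between 5.09% and 5.65% in both. For the leading transcripts of Acta1, Acta2, Actb and Actg1 the libraries lay closer to each other than the quantifications did.

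Actg2 behaved otherwise. In the first quantification Actg2-201 (1333 nt) took all 159 counts of replicate 1 and none of replicate 2, while Actg2-202 (1273 nt) took all 146 counts of replicate 2 and none of replicate 1. The transcripts share 1240 nt, so that 93 nt of Actg2-201 lie outside Actg2-202. The authors' posterior SDs for Actg2-201 were 23.0 and 25.1 counts. In the second quantification Actg2-201 held 73.5% and 8.74% of the TPM in replicates 1 and 2, Actg2-202 held 0% and 74.6%, and Actg2-205 (772 nt) held 26.5% and 16.7%. No transcript of Actg2 led in both libraries.

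**Figure D5:**
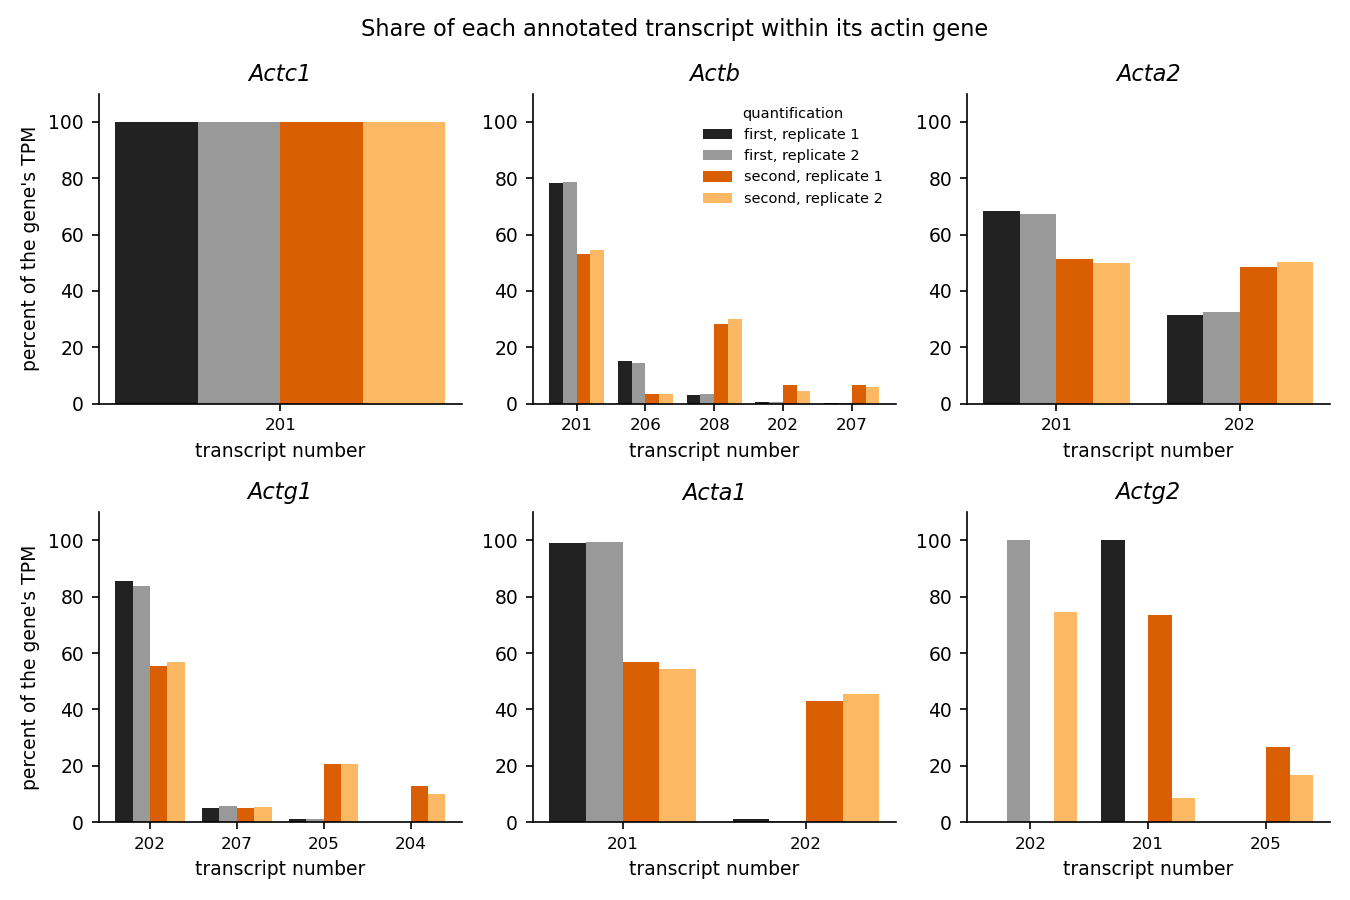
Each panel gives, for 1 actin gene, the percent of the gene's TPM assigned to each annotated transcript that reached 5% in any library, with black and grey bars for the first quantification and orange bars for the second. The leading transcripts of Acta1, Acta2, Actb and Actg1 held less in the second quantification than in the first, Actc1-201 held nearly all in both, and for Actg2 the leading transcript differed between the replicates.

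By mean TPM both quantifications gave the actins the same order, but in replicate 2 Acta2 lay above Actg1 by 0.21 on the log2 scale in the second and at -0.04 in the first. TPM in the second quantification was 1.31 to 2.00 times that in the first, although counts per gene were only 0.997 to 1.15 times those of the first. The factor was smallest for Actc1 (1.32 and 1.31) and largest for Acta1 (1.95 and 2.00). The striated share was 75.7% ± 1.14 in the second quantification and 78.5% ± 1.03 in the first (SD, n = 2). Acta2, at 917 and 775 TPM, no longer overlapped Actg1, at 631 and 672 TPM, in the second quantification.

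Promoters of the pair of striated actins are shown because these members differ so widely in level and because Acta1 differed between the libraries. The sequences come from RefSeq on GRCm38.p6, 250 bases before and 50 after the annotated start, and 4 of the 6 members, Actc1, Acta1, Actg1 and Acta2, matched an entry by symbol. Both lie on the minus strand, Actc1 at chr2:114052826-114053125 and Acta1 at chr8:123894726-123895025. Capitals mark exact matches to the CArG box, the element bound by serum response factor (SRF), and to TATAAA on the strand of the gene.

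Actc1: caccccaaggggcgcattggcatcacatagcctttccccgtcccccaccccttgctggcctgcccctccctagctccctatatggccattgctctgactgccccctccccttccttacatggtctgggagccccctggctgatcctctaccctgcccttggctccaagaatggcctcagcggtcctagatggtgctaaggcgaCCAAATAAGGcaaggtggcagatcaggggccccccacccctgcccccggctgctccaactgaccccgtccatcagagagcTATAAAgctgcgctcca
Acta1: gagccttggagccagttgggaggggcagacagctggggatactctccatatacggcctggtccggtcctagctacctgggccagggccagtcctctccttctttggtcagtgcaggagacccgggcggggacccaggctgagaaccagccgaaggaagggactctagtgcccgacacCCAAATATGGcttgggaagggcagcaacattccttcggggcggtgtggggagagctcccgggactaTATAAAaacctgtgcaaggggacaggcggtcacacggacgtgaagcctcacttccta

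A CArG box lay 47 bases before the annotated start of Actc1 and 73 bases before that of Acta1, and one also lay 90 bases before that of Actg1. Acta2 had no exact match in this window, but held CCCTATATGG 84 bases and CCTTGTTTGG 34 bases before the start, each with 1 mismatch. Such matches with 1 mismatch also lay 175, 138 and 87 bases before the start of Actc1. In Acta1 they lay 205 and 154 bases before the start. Of 32851 RefSeq promoters of the same length, 1.63% held a CArG box, whose pattern is the same on both strands, and 21.1% held one with at most 1 mismatch. TATAAA occurred 7 bases before the start of Acta1 and 33 bases after that of Actc1, did not overlap the CArG box in either, and was found on the strand of the gene in 8.32% of all promoters and on either strand in 13.6%. The RefSeq start of Actc1 lies 672 bases inside the GENCODE gene. That end of the gene belongs to Actc1-202, which held 0.0130% and 0.0158% of the gene's TPM in replicates 1 and 2. The leading Actc1-201 begins at base 114052887, within the printed window. For Acta2 the RefSeq start lies 216 bases inside the gene and for Actg1 46 bases inside. For Acta1 it lies outside the gene, at -25 on the same measure, before the GENCODE start of Acta1-201. All these positions, that of TATAAA in Acta1 included, thus depend on the start chosen. A match is a description of letters, and binding was not measured.

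Genes that assemble, fold and regulate actin were expressed broadly, and none that was tested was called between the libraries. Calls were rare over all genes tested too, at 0.537% higher in replicate 1 and 0.324% higher in replicate 2. The absence of calls thus does not set these genes apart. Among the 13 genes of monomer binding and recycling all had at least 1 TPM in both libraries, led by the monomer-sequestering thymosins Tmsb4x (427 and 457 TPM) and Tmsb10 (379 and 404 TPM) and by the severing factor Cfl1 (322 and 327 TPM). Of these, 8 were higher in replicate 1 and 5 in replicate 2, at a median log2 ratio of 0.03. The thymosin Tmsb4x alone was thus close in level to Actg1.

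Of 28 nucleation and elongation genes, 26 had at least 1 TPM, led by the Arp2/3 subunits Actr3 (156 and 155 TPM) and Arpc2 (109 and 114 TPM) and the cardiac formin Fhod3 (143 and 158 TPM). Their median ratio was -0.04, with 9 of the 26 tested higher in replicate 1. Of 14 capping and severing genes, 11 reached 1 TPM, led by the capping protein subunit Capzb (187 and 193 TPM), the pointed-end cap Tmod1 (123 and 121 TPM) and Svil (108 and 113 TPM), at a median of 0.05. Of 16 crosslinking genes, 15 reached 1 TPM, and Actn2, the alpha-actinin of the sarcomeric Z-disc, stood out at 936 and 945 TPM ahead of the filamins Flna (166 and 180 TPM) and Flnc (134 and 118 TPM). Actn3, the alpha-actinin of fast skeletal muscle, was not tested for its low level and had 64 and 9 counts, a log2 ratio of 2.65 (1.71 to 3.91).

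Folding of actin depends on the chaperonin CCT and on prefoldin, and all 17 genes on that list reached 1 TPM. Pfdn5 (148 and 147 TPM), Tcp1 (131 and 134 TPM) and Cct3 (114 and 115 TPM) led it. In the main scaling 14 of the 17 were higher in replicate 1, at a median log2 ratio of 0.07, beside 6945 of all 13598 genes tested. Such counts of direction depend on the scaling, since scaling by spike-ins moved the median gene to -0.13. All 10 genes of the list of SRF, its coactivators and its targets reached 1 TPM, led by Fhl2 (489 and 512 TPM), Fhl1 (130 and 116 TPM) and the adhesion protein Vcl (88.7 and 91.7 TPM), at a median of 0.03. The medians of these 6 lists lay between -0.04 and 0.07, beside 0.0031 for all genes tested. None of the lists had a called member, beside 0.537% and 0.324% of all genes tested called higher in replicates 1 and 2.

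The more distant actin-related genes were lower than Actg1 in both libraries. Of 18 on the list, 10 reached 1 TPM in both libraries, with Actr3 as above, the dynactin subunit Actr10 at 73.1 and 77.3 TPM and the dynactin filament protein Actr1a at 57.5 and 58.5 TPM. Actl6b, Actl7a, Actrt1, Actrt2 and Actbl2 had 0 counts in both libraries, which allows up to 3 counts in each.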

How the data were processed

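Each library has deposited gene and transcript tables with RSEM's columns and a further transcript table with kallisto's columns (the second quantification). Per the notes that accompany the files, all use mm10 and annotation M21. Program names, versions and read filters are not given in those notes or in the labels. The deposited expected counts are estimates that need not be whole. The deposited TPM divides them by an effective length, so short transcripts weigh more in TPM than in counts. In the first quantification that length is the transcript length minus 99 nt. There Acta1-202 had 42.4 counts and 2.92 TPM in replicate 1, beside 9839 counts and 260 TPM for Acta1-201. In the second these were 1570 counts and 222 TPM beside 8345 counts and 292 TPM. Relative to Acta1-201, each count of the short model thus weighed more in the second. The part of this in the differences between the quantifications was not tested. The posterior SD deposited by the authors is a score of how far reads could move between features. The deposited interval bounds of TPM, a signal column, and rows named by a number only (0% and 1.85e-05% of counts) were not used.

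Members were taken by symbol. The second quantification was summed per gene. Members, lists and rules were chosen with earlier results of these data known. Besides the actins, the text names the nearest protein-coding gene of each, the 3 highest genes of each list with those called or at 0 in both libraries, transcripts of at least 5% of a gene, and the 3 close copies with the most counts. Any other gene was chosen after its values were seen.

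Between the libraries expected counts, rounded, were divided by TMM-scaled library sizes (edgeR 4.0.16, R 4.3.3), given a prior count of 0.5 and compared with exact Clopper-Pearson 95% intervals, with no test across samples. The rule was tested on simulated data with 13598 genes: all 100 genes simulated with a 4-fold change were called, and counting error alone gave a mean of 9.42 calls. No smaller change, such as the 2.22-fold of Acta1, was simulated. The simulated data held no spread beyond counting error, so they do not show how the rule behaves with such spread. Sequences came from GENCODE M21 and RefSeq, and were matched with BLAST+ 2.17.0 and Biopython 1.88 in Python 3.11.15. Alternatives were other quantities (the second quantification, posterior mean TPM, rescaled TPM, CPM), scalings (DESeq2 1.42.0 size factors, library totals, spike-ins), filters, folds and single libraries. Alleles of the parental strains were not analysed here.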

Additional observations from a re-analysis of the deposited data

How the results depend on the processing

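The order of the actins and the call of Acta1 rest on 2 libraries. The summed actin TPM of 9817 moved to 13545 in the second quantification, and was 9489 to 10145 with 1 library left out. The sum was 21533 when rescaled to nuclear protein-coding genes and 10697 as CPM. Those values have another denominator or unit, so their distance from 9817 is not a measure of instability. The striated share of 78.5% moved to 75.7% in the second quantification and 75.8% as a share of counts, and was 77.8% to 79.2% with 1 library left out. Both kept their value within 1 SD with posterior mean TPM. The log2 ratio of Acta1 between the libraries ran between 1.02 and 1.16 over the other scalings, filters and quantifications and kept its call, except that its 1.15 fell short of a 3-fold threshold. Calls higher in replicate 1 and in replicate 2, 73 and 44, became 333 and 251 without minimum TPM or count, 25 and 11 with a minimum mean TPM of 5, 177 and 134 at 1.5-fold, and 40 and 18 at 3-fold. With spike-in scaling 60 genes were called higher in replicate 1 and 68 in replicate 2. Of 15 recomputed ratios between neighbouring actins 14 kept their call, the exception being Acta2 over Actg1 at 0.37 in the second quantification. Among the levels of single actins and their transcript shares, 23 values moved by more than 1 SD. These include the levels rescaled to nuclear protein-coding genes, where the denominator changed. With 2 libraries, leaving out either one moves a mean by less than 1 SD by construction. Whether these moves come from the programs was not tested. No paired analysis was possible because the series holds a single group of 2 libraries, and a ratio between libraries could not be recomputed with 1 left out.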
